A study of Homo sapiens with 46 samples.

Results

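The genes described here are 42 human genes that the transcription factor ATF4 switches on, or that act with it, in the integrated stress response, followed in cells in which one mitochondrial mRNA at a time had been blocked. The members were chosen by gene name from what is known of the response, at a time when earlier results of these data were known. They fall into 6 classes: 8 transcription factors and regulators, 7 stress effectors, 6 enzymes of serine and one-carbon metabolism, 6 other enzymes of amino acid and carbon metabolism, 6 amino acid transporters, and 9 genes for aminoacyl-tRNA synthetases and tRNA export. Each name was found once among the 58735 genes in the table of raw read counts, and all 42 were among the 20272 genes with enough counts to be tested.

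The integrated stress response lowers general protein synthesis through phosphorylation of the initiation factor eIF2α, while the ATF4 mRNA, which carries short upstream reading frames, is translated more. ATF4 protein then raises the transcription of genes for amino acid uptake and synthesis, tRNA charging and stress signalling, often as a dimer with a C/EBP protein. Mitochondrial damage is one of the signals known to start the response in cultured human cells, through a protease of the inner membrane (OMA1), its substrate DELE1 and the eIF2α kinase HRI, and the mRNA of ATF4 itself can stay level while its protein changes. Only mRNA was measured here, so neither ATF4 protein nor eIF2α phosphorylation is seen.

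The cells were HEK293T, a line derived from human embryonic kidney, labelled as wild type, and every library is poly(A) RNA from cells harvested 48 h after the start of treatment. Treated cells received 2 µM of a chimera in which pCox4, a mitochondrial targeting presequence, was joined to a morpholino complementary to the mitochondrial mRNA of ATP6, ATP8, COX1, COX2, COX3, CYTB, ND1, ND2, ND3, ND4L or ND5, in medium with the delivery reagent EndoPorter. ATP8 and ATP6 are encoded on 1 bicistronic mRNA, so their 2 chimeras target the same mRNA. The study found ATP6 synthesis lowered under the ATP8 chimera as well. The control cells had pCox4 that carried no morpholino, so that a chimera with an unrelated morpholino sequence is not among the groups. The medium contained glucose, serum, glutamine, pyruvate and uridine. There were 4 libraries per condition, and 3 for COX2 and ND2, which makes 46 libraries in 12 conditions. Replicates 1 and 2 formed one batch and replicates 3 and 4 another, prepared on different days, and a batch term compared each library with controls of its own batch. The study's methods call the replicates biological, and all libraries come from a single cell line, so that a p-value here measures the spread between replicates of that line.

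The libraries held between 18876395 and 28121898 counts, except COX3 replicate 4 with 100698084. All 66 pairs of libraries of one condition differed by more than counting noise. The mRNA that a chimera targets checks the labels for a part of the groups: MT-CO1 was lower in COX1 libraries (log2 fold change −1.33 ± 0.069 SE), MT-CO3 in COX3 (−0.49 ± 0.065) and MT-CYB in CYTB (−0.33 ± 0.061), MT-ND1, MT-ND2 and MT-ND3 were higher under their own chimeras (0.79, 1.02 and 0.80), and the targets of the other 5 chimeras did not pass the test (edgeR quasi-likelihood test, adjusted p between 0.182 and 0.855). A chimera blocks translation, so no loss of the mRNA is required of it. The keratin genes KRT8 and KRT18, VIM and LIN28B, which HEK293 cells are known for, were between 84.3 and 530 CPM (counts scaled to library size) in every library, whereas the leukocyte gene PTPRC stayed at or below 0.492 CPM and the liver gene ALB at or below 0.533 CPM. The fibroblast gene COL1A1 was between 20.5 and 31.2 CPM.

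ATF4 and C/EBP dimers are known to bind a composite element whose core reads TGATGNAA, and this element was searched for on both strands of the RefSeq promoters (GRCh38.p14), each running from 250 bases before a transcription start to 50 bases after it. Of the 42 members, 37 had an entry, and NUPR1, PSPH, SHMT2, PYCR1 and SLC7A11 had none. The element was present in 14 of those 37 genes (37.8%), against 1217 of all 27305 genes (4.46%) and 1270 of all 35116 promoters (3.62%) in the table. The members were chosen as known genes of the ATF4 response, so this difference follows in part from the choice and is no result of these libraries. The windows below show the element in members that are textbook ATF4 targets and in AARS. AARS is the one among the 5 members called in any comparison of the treatments that carries it. The sequences are written on the strand of the gene, with the 8 bases of the match in capitals (TTNCATCA where the match lies on the opposite strand).
AARS (AARS1), chr16:70289655-70289724, minus strand: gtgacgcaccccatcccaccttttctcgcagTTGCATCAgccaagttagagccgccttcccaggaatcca
ATF3, chr1:212565185-212565254, plus strand: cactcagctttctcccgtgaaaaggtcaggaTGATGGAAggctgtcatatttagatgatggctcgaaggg
CEBPG, chr19:33374060-33374089, plus strand: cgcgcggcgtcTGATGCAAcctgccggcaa
CHAC1, chr15:40953251-40953280, plus strand: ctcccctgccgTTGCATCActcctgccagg
ASNS, chr7:97872458-97872487, minus strand: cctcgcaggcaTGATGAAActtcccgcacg
MTHFD1L, chr6:150866346-150866375, plus strand: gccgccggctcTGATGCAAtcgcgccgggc
SLC1A5, chr19:46784893-46784922, minus strand: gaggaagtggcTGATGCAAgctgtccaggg
GARS (GARS1), chr7:30594834-30594863, plus strand: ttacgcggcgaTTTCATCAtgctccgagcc

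The matches in AARS and ATF3 lie upstream of the gene as the count table places it, and the other 6 inside the gene's span, close to a start site. STC2, PCK2, SARS and PSAT1, the other 4 called members, had no match in their windows, nor had ATF4, DDIT3 or TRIB3. That says only that these 8 letters are not in these 300 bases.

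The first question was whether any of the 11 chimeras changed the members against the control. Of 462 pairs of a member and a treatment, 5 passed the edgeR test across all genes, all of them higher than control: STC2 in COX3, and STC2, PCK2, AARS and SARS in CYTB. Over all genes and the 11 treatments, 0.171% of the tests passed, 0.306% in COX3 and 0.548% in CYTB, and between 0.00987% in ATP6 and ND3 and 0.469% in COX2 in the other 9, with 0.0247% in ND2, 0.0543% in COX1, 0.0641% in ATP8, 0.0888% in ND1, 0.148% in ND4L and 0.158% in ND5. STC2 encodes stanniocalcin 2, a secreted glycoprotein that is induced by ER and nutrient stress, PCK2 the mitochondrial phosphoenolpyruvate carboxykinase, and AARS and SARS the cytosolic synthetases that charge tRNAs with alanine and serine. Below that threshold the members still leaned upwards. A log2 fold change above 0 was found in 325 of the 462 pairs, and 97 were higher at an unadjusted p under 0.05 against 8 lower, where 5.38% of all tests were higher and 4.41% lower. The 11 comparisons share the same 4 control libraries, so that one control value enters every treatment and the counts do not add up as independent evidence. With DESeq2 in place of edgeR, 21 of the pairs passed, all higher than control and spread over 9 treatments, and 0.977% of its tests over all genes did. Statements on calls are from edgeR unless DESeq2 is named.

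**Figure D1:**
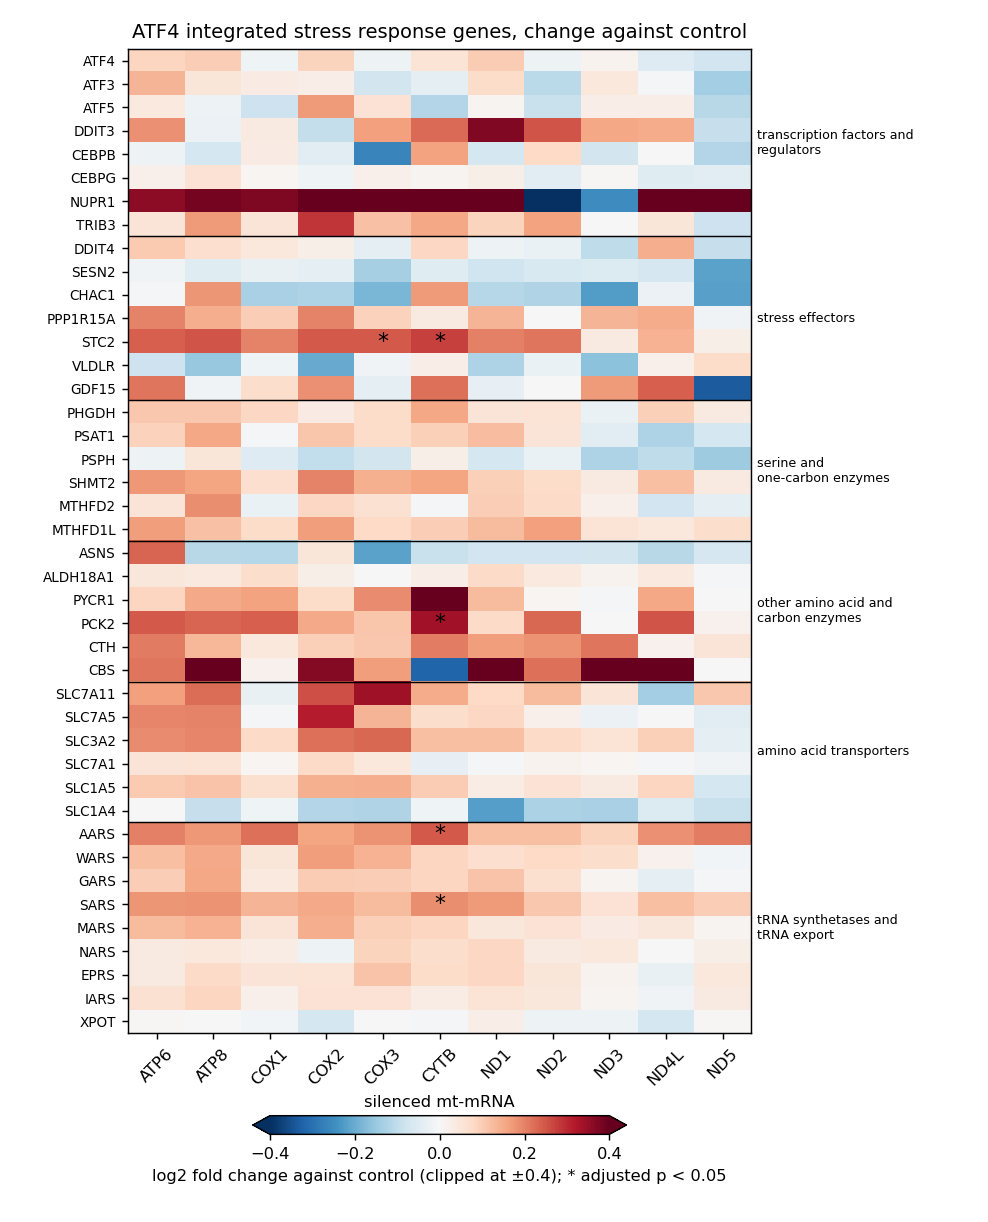
Log2 fold change against control of the 42 members (rows, by class) under the 11 chimeras (columns), red for higher and blue for lower, with the colour clipped at the ends of the scale, and a star on the 5 pairs that passed the edgeR test. Most of the field is pale red, the ND5 column is mostly blue, and the stars stand at STC2 in COX3 and at STC2, PCK2, AARS and SARS in CYTB.

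STC2 (chromosome 5, 173314713 to 173329503, minus strand) was at 51.0, 49.4, 49.9 and 43.6 CPM in control replicates 1 to 4. It was at 63.8, 61.0, 57.3 and 52.5 CPM in CYTB and at 60.4, 58.3, 57.7 and 53.4 CPM in COX3. All 8 of these libraries lay above the highest control library, and relative to the mean control of the batch they were at 112% to 127% in CYTB and 114% to 124% in COX3. The log2 fold change was 0.27 ± 0.059 in CYTB (adjusted p = 0.0170) and 0.24 ± 0.058 in COX3 (adjusted p = 0.0404, edgeR). Its fold changes in ATP6, ATP8, COX1, COX2, ND1 and ND2 lay between 0.20 and 0.25 and did not pass with edgeR, whereas ND3 (0.036) and ND5 (0.023) were near 0. DESeq2 called STC2 also in ATP6, ATP8, COX2 and ND1 (adjusted p from 0.0139 to 0.0489), and COX3 and CYTB were not shown to differ from these. The COX3 call did not hold once the deep COX3 replicate 4 was drawn down to the median library total (0.24, adjusted p = 0.0584).

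AARS (chromosome 16, 70252295 to 70289543, minus strand) was at 129, 125, 122 and 115 CPM in the controls and at 146, 142, 142 and 151 CPM in CYTB. The groups did not overlap, and the CYTB libraries were at 112% to 128% of their batch controls (log2 fold change 0.24 ± 0.050, adjusted p = 0.00869). SARS (chromosome 1, 109213918 to 109238169, plus strand) was at 154, 157, 137 and 144 CPM in the controls and at 180, 176, 158 and 161 CPM in CYTB, again without overlap (0.19 ± 0.044, adjusted p = 0.0309). DESeq2 called AARS also in ATP6, COX1, COX3, ND4L and ND5 (adjusted p from 0.0131 to 0.0469) and SARS in ATP6, ATP8 and ND1 (0.0155 to 0.0469). Both genes were higher than the mean of their batch controls in 41 of the 42 treated libraries.

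PCK2 (chromosome 14, 24094053 to 24110598, plus strand) was at 24.0, 23.7, 20.7 and 21.4 CPM in the controls and at 28.15, 27.8, 27.1 and 30.7 CPM in CYTB. The log2 fold change was 0.34 ± 0.082 (adjusted p = 0.0369), the largest of the 5 calls. Its fold changes in ATP6, ATP8, COX1, ND2 and ND4L were between 0.23 and 0.25 and did not pass, and in ND3 and ND5 it was within 0.017 of control.

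Each of these 5 calls kept its direction within each batch, where none passed the test at 2 libraries a group: in batch 1 the log2 fold changes in CYTB were 0.32 for STC2, 0.23 for PCK2, 0.19 for AARS and 0.20 for SARS, and in batch 2 they were 0.23, 0.46, 0.31 and 0.18. STC2 in COX3 was at 0.24 in both. All 5 calls were lost without control replicate 4 (adjusted p between 0.0992 and 0.264), and all 4 CYTB calls without CYTB replicate 1 (0.0508 to 0.164).

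**Figure D2:**
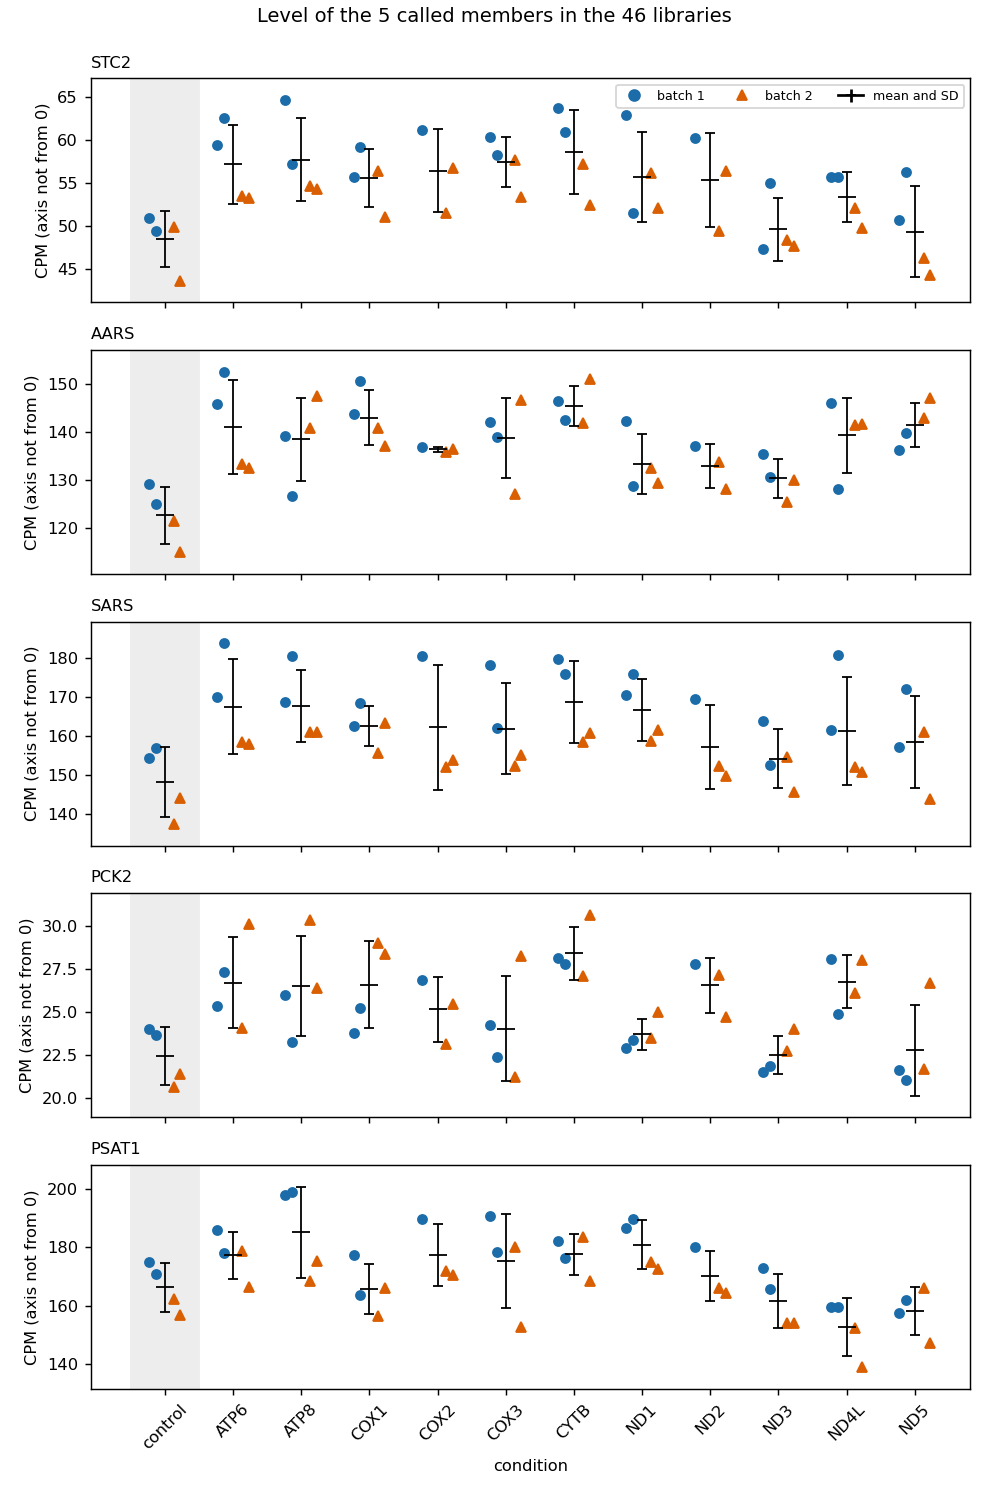
CPM of STC2, AARS, SARS, PCK2 and PSAT1 (panels, y axes not from 0) in the 46 libraries by condition, circles for batch 1 and triangles for batch 2, with the mean and SD of each condition in black. The CYTB libraries of STC2, AARS, SARS and PCK2 lie above all 4 control libraries (grey band), and the ND4L libraries of PSAT1 lie below the controls of their own batch.

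Among the 8 transcription factors and regulators, none passed the edgeR test against control under any chimera, and DESeq2 called DDIT3 in ND1 and TRIB3 in COX2. ATF4, the central factor, was the member with the highest level per length in the controls (164 ± 5.17 SD RPKM from TMM library sizes, n = 4). Its control libraries were at 426, 418, 409 and 396 CPM, and over all 46 libraries it lay between 357 and 472 CPM. Its log2 fold changes ran from −0.077 in ND5 to 0.10 in ND1, and the 95% intervals of all 11 together span −0.17 to 0.19, so a change of ATF4 mRNA beyond that size was not seen. DDIT3, the pro-apoptotic factor CHOP, was at 8.74, 9.30, 6.38 and 5.97 CPM in the controls and at 10.4, 11.9, 8.24 and 8.58 CPM in ND1. Each ND1 library lay above the controls of its own batch, although not above all of them, and the fold change of 0.37 ± 0.10 missed the threshold with edgeR (adjusted p = 0.104) and passed with DESeq2 (adjusted p = 0.0449). DDIT3 was at −0.094 in COX2 and −0.093 in ND5 and above 0 in 8 of the 11 treatments. TRIB3, a pseudokinase that feeds back on ATF4, was at 38.7, 37.6, 36.3 and 35.0 CPM in the controls and at 50.8, 44.8 and 36.7 CPM in the 3 COX2 libraries. Its fold change in COX2 (0.29 ± 0.074, adjusted p = 0.0563) was the closest to the threshold of all pairs that did not pass with edgeR, and DESeq2 gave it an adjusted p of 0.0184. ATF5, which is translated under the same stress and is known for the mitochondrial unfolded protein response, ranged from −0.12 in CYTB to 0.17 in COX2 with standard errors of at least 0.11.

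NUPR1 had the highest and CEBPB the lowest mean fold change of this class over the 11 treatments (0.44 ± 0.26 and −0.035 ± 0.095). NUPR1, a small chromatin-associated stress protein, was the least expressed member, at 1.24, 1.54, 0.247 and 0.142 CPM in the controls. Its fold changes ran from −0.49 in ND2 to 0.96 in ND5 with standard errors between 0.32 and 0.41, and none passed the test. CEBPB, a partner of ATF4, ranged from −0.26 in COX3 to 0.16 in CYTB. ATF3 and CEBPG, a repressor and a partner of ATF4, complete the class with mean fold changes of 0.00021 and −0.0013. ATF3 was lower in ND5 (−0.14) and higher in ATP6 (0.14), short of the threshold in both.

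Among the 7 stress effectors STC2 was the only one to pass against control, with edgeR and with DESeq2. CHAC1, which degrades glutathione and is among the most inducible ATF4 targets, had the lowest mean fold change of the class (−0.072 ± 0.11), ranging from −0.22 in ND3 to 0.18 in ATP8 at 2.33 to 6.24 CPM. GDF15, a secreted cytokine often used as a marker of mitochondrial disease, was at 5.23, 7.18, 3.56 and 4.36 CPM in the controls. Its fold changes ran from −0.33 ± 0.17 in ND5 to 0.24 ± 0.16 in ND4L. In ND5 it was at 4.66, 4.62, 3.30 and 3.42 CPM, each library below the controls of its batch, but the test gave an adjusted p of 0.548. SESN2, which restrains mTORC1 and is singled out here after its values were seen, was below 0 in all 11 treatments (−0.21 in ND5 to −0.016 in ATP6) and below the mean of its batch controls in all but 7 of the 42 treated libraries. DDIT4, an inhibitor of mTORC1, PPP1R15A, the phosphatase subunit GADD34 that reverses eIF2α phosphorylation, and VLDLR, a lipoprotein receptor, had mean fold changes of 0.017, 0.11 and −0.061.

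In serine and one-carbon metabolism 5 of 6 members had a mean fold change above 0, and none passed the edgeR test against control, while DESeq2 called SHMT2 in COX2. SHMT2, the mitochondrial serine hydroxymethyltransferase, was the highest on average (0.11 ± 0.038) and was above 0 in all 11 treatments, from 0.035 in ND3 and ND5 to 0.20 in COX2 (adjusted p = 0.0713 with edgeR and 0.0266 with DESeq2). PSPH, which makes serine, was the lowest (−0.058 ± 0.052), from −0.14 in ND5 to 0.049 in ATP8. PHGDH, the entry enzyme of serine synthesis, ranged from −0.027 in ND3 to 0.15 in CYTB, and MTHFD2, the mitochondrial folate dehydrogenase, from −0.077 in ND4L to 0.19 in ATP8. MTHFD1L was above 0 in all 11 treatments and above the mean of its batch controls in 38 of 42 treated libraries. PSAT1, the serine synthesis aminotransferase, is the gene on which the treatments differed and is described further on.

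Of the 6 other enzymes, PCK2 was the only one called against control, with edgeR and with DESeq2. ASNS, which makes asparagine and is a classic reporter of amino acid shortage, was at 3.99, 1.85, 3.76 and 3.93 CPM in the controls, among the lowest levels of the list. Its fold changes lay between −0.21 in COX3 and 0.23 in ATP6 with standard errors from 0.17 to 0.18. In the annotation, 1985 of the 4455 exon bases of ASNS (44.6%) are shared on the same strand with AC079781.5, which collected 2059 counts over the 46 libraries against 3749 for ASNS, so the level of ASNS is uncertain. CBS, the first enzyme of transsulfuration, had the highest mean of its class (0.29 ± 0.32), but its copy CBSL drew almost as many counts (13808 against 13949). CBS ranged from 4.43 to 32.0 CPM between libraries and CBS and CBSL together from 11.4 to 42.7 CPM. PYCR1, which makes proline, ran from −0.0075 in ND3 to 0.43 in CYTB without passing. ALDH18A1, also of proline synthesis, and CTH, the second transsulfuration enzyme, had mean fold changes of 0.034 and 0.13.

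Of the 6 amino acid transporters none passed against control with edgeR or DESeq2. SLC3A2, a heavy chain shared by some of the SLC7 transporters, had the highest mean (0.12 ± 0.054). SLC7A11, the cystine transporter, was at 23.9, 23.1, 24.4 and 22.1 CPM in the controls and at 31.7, 31.5, 31.3 and 24.7 CPM in COX3, the last value being the deeply sequenced library. All 4 COX3 libraries lay above all controls, and the fold change of 0.34 ± 0.099 gave an adjusted p of 0.132. SLC1A4, a neutral amino acid transporter, had the lowest mean of all 42 members (−0.089 ± 0.051). It was below 0 in all 11 treatments, with −0.22 in ND1 as the furthest, and lay above the mean of its batch controls in 8 of 42 treated libraries. SLC7A5, SLC1A5 and SLC7A1, carriers of large neutral amino acids, glutamine and cationic amino acids, had mean fold changes of 0.087, 0.074 and 0.018.

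The 9 synthetase and tRNA export genes were the most even class, with 8 of 9 mean fold changes above 0 and a median of 0.066. MARS, GARS, WARS, NARS, EPRS and IARS, the synthetases for methionine, glycine, tryptophan, asparagine, glutamate with proline, and isoleucine, had mean fold changes between 0.039 and 0.085. Of these DESeq2 called GARS in ATP8 (0.16, adjusted p = 0.0322, against 0.138 with edgeR). XPOT, the nuclear exporter of tRNA, is the exception at −0.015 ± 0.033. Between libraries XPOT varied from 237 to 286 CPM, and IARS, the steadiest synthetase, from 389 to 454 CPM.

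**Figure D3:**
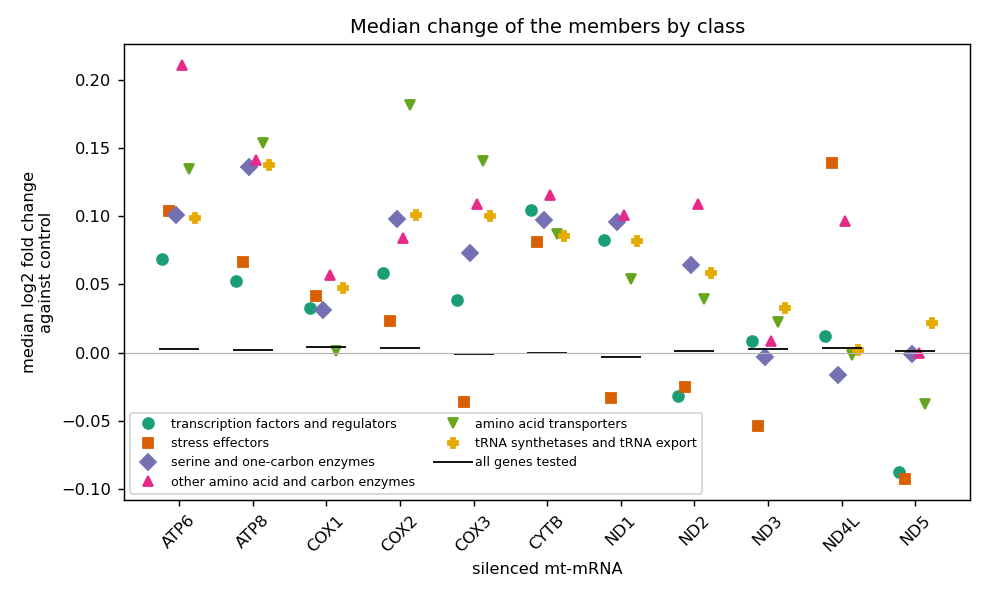
Median log2 fold change against control of each of the 6 classes (coloured symbols) and of all 20272 genes tested (black bars) under the 11 chimeras, with no test. The medians of all genes stay at 0, the class medians lie mostly above it in ATP6, ATP8, COX2, CYTB and COX3, and in ND5 those of regulators and stress effectors are at −0.088 and −0.093.

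Taking the 42 members as a list, with no test over them, the median log2 fold change was 0.12 in ATP8 and 0.10 in ATP6, where 34 and 36 members lay above 0. It was between 0.077 and 0.091 in COX2, CYTB, COX3 and ND1, with 30 to 33 members above 0, and 0.047 in ND2, 0.037 in COX1, 0.019 in ND4L, 0.013 in ND3 and −0.011 in ND5, where 17 members lay above 0. Within batch 1 alone the medians ran from −0.041 in ND5 to 0.12 in COX2 and within batch 2 from −0.010 in ND4L to 0.10 in ND1, with ATP6 at 0.094 and 0.087 and CYTB at 0.091 and 0.066. The medians over all genes tested lay between −0.0032 and 0.0040. At an unadjusted p under 0.05, 18 members were higher in ATP8 (6.21% of all genes), 14 in COX2 (7.42%), 13 in ATP6 (5.39%), 12 in CYTB (7.66%), 11 in COX3 (5.65%), 8 in ND1 (6.47%), 7 in ND2 (2.34%), 6 in ND4L (7.11%), 4 in COX1 (4.58%), 3 in ND5 (4.78%) and 1 in ND3 (1.62%). ATP6 and ATP8, with many members at a low unadjusted p, had no member called at the adjusted threshold with edgeR, and in total 2 genes (0.00987%) and 13 genes (0.0641%) were called there. DESeq2 called 3 members in ATP6 (STC2, AARS and SARS, where 0.167% of the genes it tested were called) and 3 in ATP8 (STC2, GARS and SARS, where 0.588% were).

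The same can be read library by library, as the median over the members of the log2 CPM minus the mean control library of the batch. The 4 control libraries had an SD of 0.020 around 0. The ATP6 libraries lay between 0.083 and 0.12, all above the highest control library, as did all libraries of ATP8 (0.066 to 0.15), COX2 (0.032 to 0.14), COX3 (0.038 to 0.093), CYTB (0.046 to 0.13), ND1 (0.023 to 0.11) and ND2 (0.030 to 0.094). COX1, ND3, ND4L and ND5 had libraries on both sides of 0, from −0.074 to 0.035 in ND5. The control libraries enter their own mean, which draws them towards 0.

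**Figure D4:**
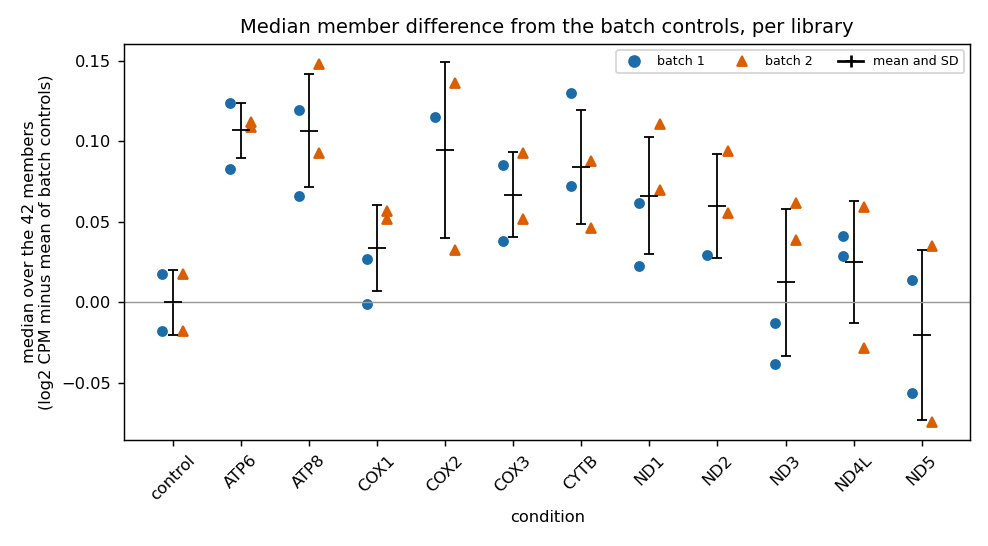
Median over the 42 members of the log2 CPM difference from the mean control library of the same batch, for each of the 46 libraries (circles batch 1, triangles batch 2), with the mean and SD of each condition. The 4 control libraries lie within 0.018 of 0, the ATP6 libraries between 0.083 and 0.12, and the ND5 libraries between −0.074 and 0.035.

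The mean of the 11 treatments against the control was tested as a further contrast, since it asks what the chimeras share. In it 3 members rose: AARS (log2 fold change 0.17 ± 0.038, adjusted p = 0.0320), STC2 (0.19 ± 0.045, adjusted p = 0.0406) and SARS (0.14 ± 0.033, adjusted p = 0.0488, edgeR). Of all genes 0.261% were called in this contrast. A further 7 members were higher at an unadjusted p under 0.05 (SHMT2, MTHFD1L, PCK2, SLC3A2, WARS, GARS and MARS), which makes 10 beside 6.55% of all genes, and none was lower, beside 5.37%, with 32 of 42 above 0 and a median of 0.064. ATF4 was at 0.023 ± 0.034. The calls lie close to the threshold and rest on the 4 controls: without control replicate 4 none of the 42 members was called (AARS 0.15, adjusted p = 0.426), nor without control replicate 2 (AARS 0.17, 0.0842) or 3 (AARS 0.17, 0.136). What this contrast shows also includes any effect of a morpholino cargo as such, which the control lacks, and the design cannot tell the effects apart.

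Comparing the treatments with each other does not use the level of the control libraries, which still enter the estimate of the spread and the batch term. Across the 11 treatments PSAT1 was the only member that edgeR called (F = 7.17 on 10 degrees of freedom, adjusted p = 0.00038), where 0.306% of all genes were called. It was at 175, 171, 162 and 157 CPM in the controls. In ND4L it was at 160, 160, 153 and 139 CPM, each library below the controls of its batch, and in ATP8 at 198, 199, 169 and 175 CPM, each above them. Against the mean of the other 10 treatments it fell by 0.18 on the log2 scale in ND4L (SE 0.035, adjusted p = 0.0226), where 0.0197% of all genes were called. It was also lower in ND5 (−0.12, adjusted p = 0.0733) and ND3 (−0.091, adjusted p = 0.823) and higher in ATP8 (0.12, adjusted p = 0.810), and none of these passed. With DESeq2's likelihood ratio test 11 members differed across the treatments (2.05% of the genes it tested): PSAT1, ATF4, ATF3, DDIT3, NUPR1, TRIB3, STC2, MTHFD2, PCK2, SLC7A11 and GARS. The edgeR test gave ATF4 an adjusted p of 0.103 and ATF3 0.0870.

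ND5 was the treatment with the lowest levels. STC2 fell by 0.18 against the mean of the other 10 (SE 0.044, adjusted p = 0.0311), with 50.6, 56.3, 46.2 and 44.2 CPM in ND5. It was the only member called among 157 genes (0.774%) in that contrast, but 37 of 42 members lay below 0 with a median of −0.088. At an unadjusted p under 0.05, 18 were lower (6.21% of all genes) and 2 higher (6.41%). DESeq2 called 8 members in the contrast (2.70% of the genes it tested), all lower: STC2, ATF4, ATF3, TRIB3, SESN2, GDF15, PSAT1 and SLC1A5. In ND3, 10 members were lower at an unadjusted p under 0.05 (2.93% of all genes) with a median of −0.043 and none called, and in ATP6 35 of 42 lay above 0 with a median of 0.046 and none called.

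All of the treatments with a median under 0.02 against control target subunits of complex I, which led to a contrast chosen after these values were seen: the 5 complex I chimeras against the 6 that target complexes III, IV and V. The members PSAT1 (−0.10 ± 0.020, adjusted p = 0.0149) and STC2 (−0.12 ± 0.026, adjusted p = 0.0255) were lower in the complex I group, where 0.104% of all genes were called. Of the 42 members 39 lay below 0, with a median of −0.052, and 20 were lower at an unadjusted p under 0.05 (4.29% of all genes) and none higher (3.24%). All 9 synthetase and export genes, all 6 transporters and all 6 serine and one-carbon enzymes were among those below 0. The grouping was drawn from the medians of these same members, so these counts and p-values partly restate that choice. The complex I group is not uniform, since ND1 had 32 members above the control and ND5 17, and without ND4L replicate 4 neither gene was called.

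More members were called between the batches than under any chimera. The batch contrast compares all 46 libraries, whereas a chimera contrast compares only the libraries of its condition with the controls. The batch test therefore had more power, and the counts of calls do not compare the sizes of the effects. Between batch 2 and batch 1, 32 of the 42 members differed (57.1% of all genes did), 28 lower and 4 higher in batch 2. NUPR1 (−1.25 ± 0.14), GDF15 (−0.70 ± 0.069), CHAC1 (−0.64 ± 0.062), SLC3A2 (−0.47 ± 0.030) and DDIT3 (−0.45 ± 0.043) were lower, and CBS (0.65 ± 0.18), PYCR1 (0.45 ± 0.054), ASNS (0.26 ± 0.071) and PHGDH (0.10 ± 0.023) were higher. The conditions are spread over both batches, and without the batch term none of the 462 pairs passed the test. Whether a chimera acted differently in the batches was tested by an interaction term, and edgeR called none of the 42 members in any of the 11 treatments (0% of all genes). At an unadjusted p under 0.05 there were 28 of 462 pairs, beside 5.21% of all tests. DESeq2 was not run on the interaction.

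**Figure D5:**
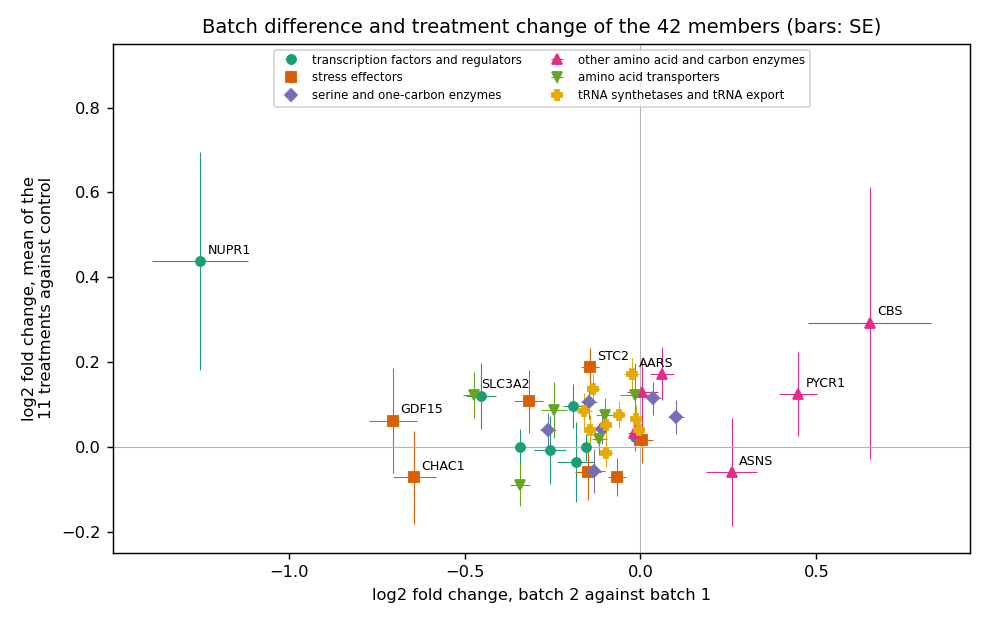
Log2 fold change between batch 2 and batch 1 (x axis) against that of the mean of the 11 treatments over control (y axis) for the 42 members, with standard errors as bars and colours for the classes. NUPR1, GDF15 and CHAC1 lie furthest left at −1.25, −0.70 and −0.64, CBS furthest right at 0.65, and NUPR1 (0.44) and CBS (0.29) are the highest on the y axis.

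The neighbouring parts of the response were read from 4 further gene lists. All 12 remaining cytosolic tRNA synthetases measured here had a mean fold change over the 11 treatments above 0, with a median of 0.079. YARS, for tyrosine, rose in ATP8 (0.22 ± 0.045, adjusted p = 0.0188) and in COX2 (0.22 ± 0.048, adjusted p = 0.0226). A list of 17 genes held eIF2, its kinases, exchange factor and regulators (PPP1R15B, GCN1 and IMPACT), and OMA1 and DELE1. Of these 17, 11 lay above 0 with a median of 0.032. EIF2B3, a subunit of the exchange factor eIF2B, rose in COX2 (0.25 ± 0.059, adjusted p = 0.0316), and OMA1 and DELE1 were called in no comparison. Of 15 other known ATF4 targets with enough counts, 11 lay above 0 with a median of 0.074, and of 18 ER chaperones and other targets of ATF6 and XBP1, 10 with a median of 0.019. Neither of these last lists had a gene that passed against the control.

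The strand setting of the counting is not given in the sources used here, and 15 of the 42 members share exon bases with another annotated gene. In 8 of them the overlap covers at least 10% of the exon bases. Besides ASNS these include DDIT3, of whose 1307 exon bases 355 lie opposite MARS, and ATF5, with 626 of 2954 bases opposite NUP62. If reads were counted without strand, part of the counts of DDIT3 and ATF5 could belong to those far more abundant genes (301004 counts for MARS against 9428 for DDIT3). STC2, AARS, SARS, PCK2 and PSAT1 overlap no other gene.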

How the data were processed

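RNA-seq was carried out by the study on poly(A) RNA of HEK293T cells. The deposited values are raw counts of reads per gene, which the authors left without normalization or filter. Per the labels the genome build is GRCh38.p12, and the submitters' processing notes name R 4.3.0, DESeq2 1.40.2 and limma 3.56.2, while the aligner, the counter and the strand setting are not given in the sources used here. The deposited gene length is in bases.

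Counts were analysed in R 4.3.3 with edgeR 4.0.16 (TMM, filterByExpr with a minimum count of 10, quasi-likelihood test) in 1 model of 12 conditions and batch over all 46 libraries, with Benjamini-Hochberg adjustment over the 20272 genes kept and a call at an adjusted p under 0.05. Errors are standard errors unless named SD. CPM use TMM library sizes. The tests are two-sided. Counts were also simulated with known changes, all larger than any member change called between conditions, and without a batch difference. Their direction and median size were recovered, and changes of the size called here were not simulated. DESeq2 1.42.0, other scalings and filters, other designs and each left-out library are alternatives. Overlaps of exons come from the GENCODE annotation that matched the gene identifiers, and promoters from RefSeq.

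The members, classes and other lists were chosen with earlier results of these data known. Named are members called in any comparison, ATF4, DDIT3, ATF5, TRIB3, CHAC1, ASNS, PSAT1, PHGDH, MTHFD2, SLC7A11 and GDF15, and the highest and lowest mean fold change of each class; other members have ranges or means. The contrast of complex I chimeras, the contrast of batches as a description and the removal of a GC trend were chosen after seeing the data. An SD is over libraries, and depth sets counting error only.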

Additional observations from a re-analysis of the deposited data

Results flagged for a closer look

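The level of each gene described by name was checked for a library far from the others in each condition with 4 libraries, as was the median over the members. Of 240 such groups 7 had one, and the groups share libraries. The gene levels were not corrected for batch, and each group joins 2 libraries of either batch. A batch difference widens the range of such a group, so the 7 cannot be set against a chance rate. ASNS was at 1.85 CPM in control replicate 2, below the other 3 controls. CBS was at 21.4 CPM in ATP6 replicate 4 and at 19.7 CPM in COX3 replicate 4, above the other libraries of its condition both times. SLC7A11 was at 24.7 CPM in COX3 replicate 4, below its group, in the library with 100698084 counts. STC2 was at 55.1 CPM in ND3 replicate 2, PCK2 at 26.7 CPM in ND5 replicate 4 and XPOT at 278 CPM in ND5 replicate 1, each above its group.

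Effects that differed between treatments by a test of the difference itself were those of PSAT1 across the 11 treatments (F = 7.17), of PSAT1 in ND4L against the mean of the other 10 (log2 difference −0.18), of STC2 in ND5 against the mean of the other 10 (−0.18), and of STC2 (−0.12) and PSAT1 (−0.10) between the 5 complex I chimeras and the other 6. The last contrast was chosen after the values of these members were seen, so its tests are not independent of that choice.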

How the results depend on the processing

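The count of member-treatment pairs called against control was 5 (0.171% of the tests over all genes). It was 0 without the batch term and within either batch alone. It was 8 with at least 1 CPM in every library (0.402%) and 10 with only the libraries compared (0.828%). After removal of a GC trend it was 12 (0.367%), with no filter on low counts 19 (0.416%) and with DESeq2 21 (0.977%). In each of these settings with more pairs the share over all genes was also above 0.171%, but the 2 did not rise in step. The members called in the mean of the 11 treatments (3) were 0 without the batch term and within either batch alone and 1 with COX3 replicate 4 drawn down to 23342514 counts. Across the 11 treatments the 1 member called became 0 without the batch term and in batch 2 alone, 4 without the GC trend, 11 with DESeq2 (likelihood ratio test) and 13 with no filter, where the share of all genes rose from 0.306% to 0.612%, 2.05% and 1.66%. Against the mean of the other 10 treatments the 2 calls became 0 without the batch term and within either batch, 4 with TMM without mtDNA genes, 4 without the GC trend, 5 with at least 1 CPM, 11 with DESeq2 and 14 with no filter (0.0991% of all tests, and 0.0987%, 0.144%, 0.195%, 0.265% and 0.190% in these 5). The 2 calls for complex I became 0 without the batch term and within either batch, 1 without a trend on gene length and 6 with no filter (0.104% of all genes, 0.0937% and 0.186%). The interaction with batch called 1 pair with no filter. The median in ATP8 was 0.067 in batch 1 alone. Of 218 values 182, mainly medians, stayed within 1.5 times the count or 1 SD of the libraries. Pairs called against control did so in 4 of 13. The medians of ND3 and ND4L, smaller than 1 SD, changed sign within a batch (−0.025 in batch 1 and −0.010 in batch 2). The causes were not tested, beyond the fewer libraries within a batch.

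Leaving out each library in turn gave 0 to 10 pairs against control, 0 to 3 members in the mean, 1 to 3 across the treatments, 1 to 6 pairs against the other 10 and 0 to 2 members for complex I, and medians from 0.074 to 0.12 in ATP6 and 0.057 to 0.098 in COX3. No pair was called without control replicate 4, 1 without CYTB replicate 1 and 10 without COX2 replicate 4. Of the calls against control, that of STC2 in COX3 was also lost without COX3 replicate 1, 3 or 4, control replicate 1 or 2, ATP8 replicate 4, CYTB replicate 3 or ND3 replicate 3 (adjusted p from 0.0506 to 0.15), PCK2 without CYTB replicate 2 or 4 or control replicate 3 (0.0661 to 0.187), AARS without CYTB replicate 4 or control replicate 3 (0.0519 and 0.0543), and SARS without CYTB replicate 2 or 4 or control replicate 2 or 3 (0.0518 to 0.153). In the mean of the treatments the call of STC2 was lost without 19 and that of SARS without 30 of the 46 libraries taken singly, and in the complex I contrast STC2 was lost without 13 and PSAT1 without 1, ND4L replicate 4. PSAT1 stayed called across the treatments without any 1 of the 46 libraries, and PSAT1 in ND4L was lost without ND4L replicate 1, 2 or 4 (adjusted p up to 0.552) and STC2 in ND5 without ND5 replicate 1, 3 or 4 (up to 0.285). Over the alternatives the adjusted p of STC2 in CYTB ran from 0.00158 to 0.411, of AARS in CYTB from 0.000539 to 0.505, of SARS in CYTB from 0.00443 to 0.505, of PCK2 in CYTB from 0.00402 to 0.505 and of STC2 in COX3 from 0.00859 to 0.602.

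With the replicate number as a block in place of batch, 15 pairs were called against control (0.40% of all tests), 8 members across the treatments (0.987%), 8 pairs against the other 10 (0.177%) and 4 members for complex I (0.178%). The mean correlation of deviations between same-numbered libraries was 0.0094 in batch 1 (13 of 45 pairs over 0.1). In batch 2 it was 0.176 (46 of 66), so variation shared by number is possible there. The main model does not pair libraries by number.

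Standard errors against control were widest in CBS (0.41 to 0.45) and NUPR1 (0.32 to 0.41), beside 0.14 to 0.18 in CHAC1, GDF15 and ASNS. Changes of the size called in STC2, AARS and SARS were not detectable in these, DDIT3 or ATF5.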
